A study of Mus musculus with 2 samples.

Results

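Chromatin loops at 50 guidance and adhesion receptor genes were described in the mouse uterus in estrus and in diestrus. The genes were taken by name from 7 groups (Eph receptors and ephrins, Slit and Robo, semaphorins and plexins, netrins with their receptors and Flrt, classical cadherins, protocadherins, and Ig adhesion molecules with a netrin-G), out of 21631 protein-coding genes on the chromosomes with loops. A loop was assigned to a gene when an end of the gene (RefSeq, GRCm38) lay inside a loop anchor or within 5 kb of it. This gave 179 of the 24131 loops of the estrus library and 194 of the 26240 loops of the diestrus library. Of the genes, 42 had a loop in at least 1 library. Epha2, Epha5, Ephb4, Efna1, Robo1, Ntn4, Flrt1 and Cdh1 had none in either.

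The data came from Hi-C, an assay that joins and sequences pieces of DNA that were neighbours in the folded genome. Uteri were taken from intact, untreated females of CD-1, an outbred stock, at 2 months of age. The estrus group is 1 library of uterus collected in estrus, the stage that follows the estrogen peak, and the diestrus group is 1 library of uterus collected in diestrus, when progesterone acts on the tissue. How many animals went into each library is unknown here. With 1 library per stage, stage, animal and library preparation cannot be told apart, no difference has a replicate check, and no test between the stages was made. Only called loops are listed, so the sequencing depth is unknown, and a loop missing from a list does not mean that its contacts were missing. The loops assigned to these genes held 23733 contacts in estrus and 27677 in diestrus. Strength is the number of contacts at a loop over the number expected from a ring of pixels around it (the donut). The files hold no expression values, so neither transcription of these genes nor the cell types of the tissue were measured.

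Guidance cues and their receptors steer the movement of cells and processes through contact or short-range signals. Ephrins on a cell bind Eph receptors on its neighbour, secreted Slits bind Robo receptors, semaphorins signal through plexins, and netrins through Dcc and Unc5 receptors. Cadherins and protocadherins join like cells through calcium-dependent contacts. Ig-domain molecules such as Ncam1 and the nectins also join cells, but have no cadherin domains. Many of these genes span long introns and lie beside long stretches without other genes, in which distal enhancers of developmental genes are often found. Loops of mammalian chromatin are commonly held by cohesin at sites bound by CTCF, and others join promoters to distal elements.

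To show sequence at gene starts that lie in loop anchors, promoter sequence from RefSeq (GRCm38.p6) is printed for 7 genes that the results turn on. These are not always the anchors with most loops. The Efnb2 start lay in an anchor of 3 loops in estrus and 4 in diestrus, while the neighbouring anchor chr8:8650001-8660000 had 6 in each. Cdh11 had no promoter window. Each stretch is the 250 bases before an annotated transcription start, and capitals mark GC boxes (GGGCGG or its reverse complement, overlapping matches included). They are Efnb2 (chr8:8661243-8661492, minus strand), Epha4 (chr1:77515089-77515338, minus strand), Ephb1 (chr9:102354694-102354943, minus strand), an inner start of Robo2 (chr16:74411826-74412075, minus strand), Sema5a (chr15:32244563-32244812, plus strand), Pcdh7 (chr5:57717831-57718080, plus strand) and Pcdh18 (chr3:49757317-49757566, minus strand).
Efnb2: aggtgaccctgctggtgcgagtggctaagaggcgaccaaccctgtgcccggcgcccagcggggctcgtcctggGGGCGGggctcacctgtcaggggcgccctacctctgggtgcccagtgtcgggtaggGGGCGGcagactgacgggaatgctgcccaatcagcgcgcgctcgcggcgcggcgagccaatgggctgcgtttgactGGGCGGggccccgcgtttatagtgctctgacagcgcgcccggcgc
Epha4: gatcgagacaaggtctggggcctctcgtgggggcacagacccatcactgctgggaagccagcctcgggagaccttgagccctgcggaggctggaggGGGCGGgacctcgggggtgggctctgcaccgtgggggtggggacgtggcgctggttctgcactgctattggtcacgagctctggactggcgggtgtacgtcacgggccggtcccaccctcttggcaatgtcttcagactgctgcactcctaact
Ephb1: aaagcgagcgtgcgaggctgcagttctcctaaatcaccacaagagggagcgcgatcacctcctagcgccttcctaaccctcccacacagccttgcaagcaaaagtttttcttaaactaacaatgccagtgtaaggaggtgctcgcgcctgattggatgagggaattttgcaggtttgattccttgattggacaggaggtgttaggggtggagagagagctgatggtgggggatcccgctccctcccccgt
Robo2: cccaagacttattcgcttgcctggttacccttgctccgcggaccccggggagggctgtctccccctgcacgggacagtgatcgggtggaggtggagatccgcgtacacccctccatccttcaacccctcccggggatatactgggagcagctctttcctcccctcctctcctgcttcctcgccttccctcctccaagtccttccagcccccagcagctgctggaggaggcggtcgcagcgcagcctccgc
Sema5a: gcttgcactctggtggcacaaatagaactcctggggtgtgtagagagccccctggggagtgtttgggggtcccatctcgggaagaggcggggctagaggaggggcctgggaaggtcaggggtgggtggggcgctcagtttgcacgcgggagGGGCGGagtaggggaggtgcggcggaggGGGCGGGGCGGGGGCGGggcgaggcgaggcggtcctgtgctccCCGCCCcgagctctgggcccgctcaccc
Pcdh7: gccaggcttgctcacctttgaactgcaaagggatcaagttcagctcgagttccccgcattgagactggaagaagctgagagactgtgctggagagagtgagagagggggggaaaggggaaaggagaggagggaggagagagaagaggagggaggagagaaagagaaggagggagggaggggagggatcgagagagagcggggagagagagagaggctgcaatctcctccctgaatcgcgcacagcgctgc
Pcdh18: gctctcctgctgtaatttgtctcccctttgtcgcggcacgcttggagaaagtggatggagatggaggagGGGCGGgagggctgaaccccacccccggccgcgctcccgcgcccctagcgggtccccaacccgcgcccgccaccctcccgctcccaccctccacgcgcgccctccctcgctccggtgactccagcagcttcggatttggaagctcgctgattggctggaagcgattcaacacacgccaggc
The Efnb2 stretch held 3 GC boxes and the Sema5a stretch 5, the Epha4 and Pcdh18 stretches 1 each, and the Ephb1, Robo2 and Pcdh7 stretches 0. Promoter windows of 300 bases, from 250 before to 50 after the start, were found for 36 of the 50 genes (41 windows). Both strands of each window were searched for the GC box, and it was in 27 of the 41, or 65.9%, and in 35.7% of all 32851 promoter windows. The windows of these genes also had a higher GC content, 64.7% against 52.7% over all windows, and a median of 23 CpG against 7. A match is only a string of letters, and these windows cover a small part of each 10 kb anchor.

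The genes were long and isolated. Their median length was 183 kb, against 17.3 kb for all protein-coding genes, and ran from 9.22 kb at Efna1 to 1555 kb at Robo2. Of the 50, 33 were over 100 kb long, a length that 11.2% of all protein-coding genes reach. The larger of the gaps to the next protein-coding gene had a median of 531 kb, against 35.2 kb. It was over 500 kb for 26 of the 50 (52.0%), against 5.93% of protein-coding genes. Gaps were taken to the next gene that does not overlap, and 5 of the 50 overlap another protein-coding gene. The widest gaps lay beside Pcdh9 (4542 kb), Pcdh17 (4420 kb), Pcdh7 (3676 kb), Efna5 (3590 kb) and Efnb2 (3512 kb).

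Loops were frequent at these genes and reached far. A loop was present at 84.0% of them, against 55.7% of all protein-coding genes, and at least 3 loops in a library at 32 genes (64.0%), against 21.0%. The genes were chosen with earlier results of these data known, so these shares describe the list and are no test of it. The part of gene length in them was not tested. Of 78 other genes of the same families, 55 had a loop. The median loop spanned 440 kb (340 to 530) in estrus and 440 kb (340 to 530) in diestrus, while loops at any protein-coding gene end had a median of 200 kb in estrus and 210 kb in diestrus. Loops over 400 kb made up 53.1% of those at the listed genes in each library, against 29.9% of all estrus loops and 30.9% of all diestrus loops. At any protein-coding gene end they made up 23.7% in estrus and 24.7% in diestrus. The longest ran 3460 kb in estrus, at Pcdh9, and 3350 kb in diestrus, at Ncam2.

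**Figure D1:**
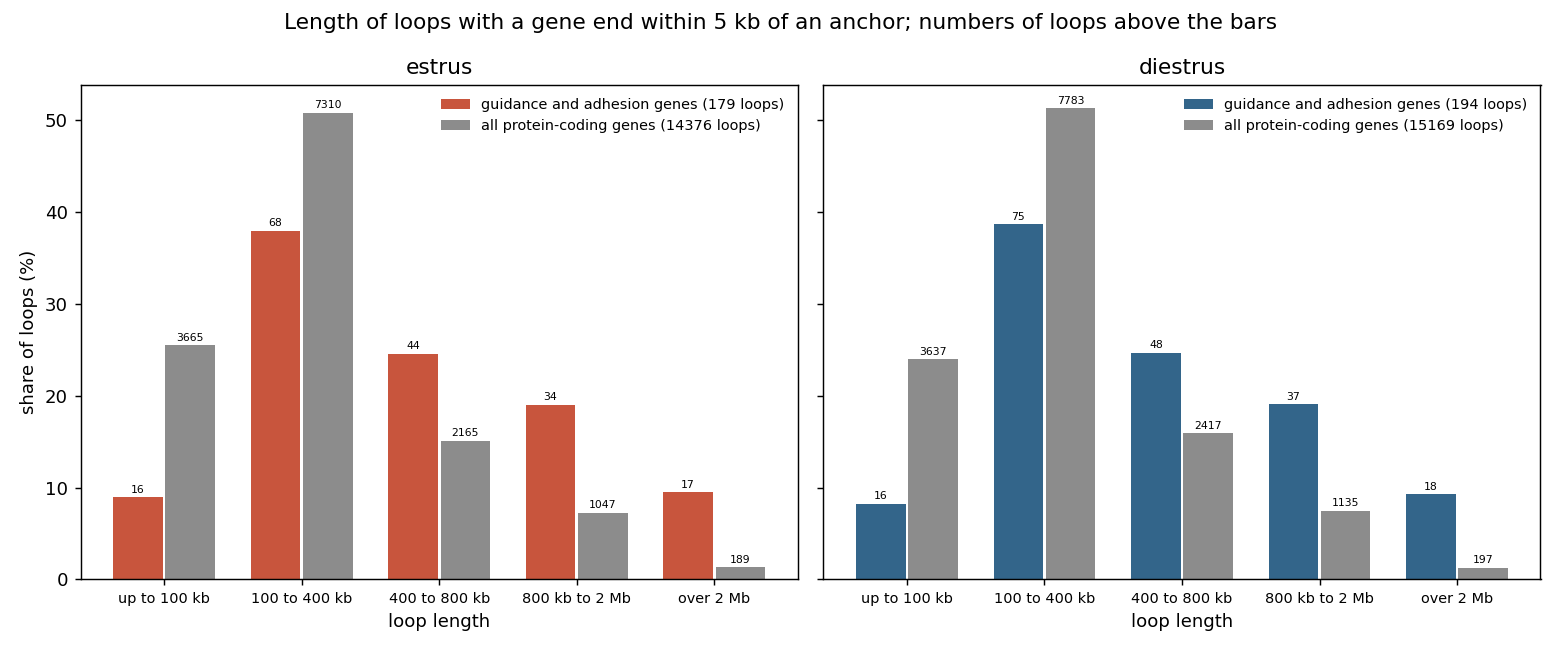
Share of loops (%, vertical axis) in 5 length classes for the listed genes (coloured) and for all protein-coding genes (grey), estrus on the left and diestrus on the right, 1 library each. Loops over 2 Mb are 17 of 179 at the listed genes in estrus and 18 of 194 in diestrus, against 189 of 14376 and 197 of 15169 at all protein-coding genes.

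The far ends of these loops mostly lay away from the ends of other genes. Among loops with 1 anchor at the gene, the opposite anchor had no end of another protein-coding gene within 5 kb in 161 of 176 in estrus, or 91.5% (95% interval 86.3 to 95.2), and in 175 of 190 in diestrus, or 92.1% (87.3 to 95.5). The same share over all protein-coding genes was 51.0% in either library. The anchor at the gene was itself within 5 kb of an end of another protein-coding gene for 24 loops in estrus and 22 in diestrus. Within 50 kb the far anchor was free of other gene ends in 76.1% of estrus loops and 77.4% of diestrus loops, against 19.8% in estrus and 20.9% in diestrus over all protein-coding genes. Where the strand was known, the anchor lay at the gene's start rather than its end in 116 of 131 estrus cases (88.5%) and in 131 of 144 diestrus cases (91.0%), against 55.6% in estrus and 57.0% in diestrus over all protein-coding genes. The loop ran into the gene itself in 15.9% of estrus cases and 16.8% of diestrus cases, against 5.26% in either library. The length of the genes and of the gaps beside them moves with these shares, and its part in them was not tested.

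Many loops left from a single anchor. Only the anchor with most loops was taken for each gene. It held at least 4 loops at 20 genes in estrus and 21 in diestrus. At 9 of these genes in estrus and 11 in diestrus, all loops of that anchor ran in the same direction along the chromosome. Further anchors of the same gene, such as the second anchor of Efnb2, were not counted. The most crowded anchor was that of Cdh11, with 13 loops in estrus and 12 in diestrus. Loops that share an anchor are not independent of each other, so intervals on shares of loops are too narrow.

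Between the stages, most loops at these genes were found in both libraries. A loop counted as found when the other list had a loop with both anchors within 10 kb of its own. Of the estrus loops 154 of 179, or 86.0% (80.1 to 90.8), were found in diestrus, and of the diestrus loops 154 of 194, or 79.4% (73.0 to 84.8), in estrus. Loops not found in the other library numbered 25 in estrus (14.0%) and 40 in diestrus (20.6%), where all loops gave 19.2% in estrus and 25.6% in diestrus. Those found had a median strength of 3.65 in estrus and 3.64 in diestrus, and those not found 2.69 in estrus and 2.64 in diestrus. The number of loops in estrus over that in diestrus was 0.923 at these genes and 0.920 over the whole lists, so they stood close to the whole lists in this respect.

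By gene, 12 of the 42 genes with a loop had more loops in estrus and 19 had more in diestrus, while 11 had equal numbers. These are 28.6% with more in estrus and 45.2% with more in diestrus. Of all 12047 protein-coding genes with a loop, 25.6% had more in estrus and 31.5% had more in diestrus. The split of the listed genes moved with the setting. With the diestrus list shortened to the length of the estrus list, 13 genes had more in estrus and 16 more in diestrus. With gene ends inside an anchor, 8 had more in estrus and 16 more in diestrus, and with ends within 10 kb 8 in estrus and 19 in diestrus. The listed genes with a loop had a median of 4 loops in each library, against 2 for all protein-coding genes with a loop. Small numbers of loops are more easily equal, and the part of this in the shares was not tested. Among the 32 genes with at least 3 loops in a library, a difference of 2 or more loops in favour of estrus was seen at 2, Ncam1 and Pcdh17, or 6.25%, against 8.40% of all protein-coding genes with as many loops. In favour of diestrus it was seen at 8 (25.0%), against 14.5%. These 8 were Epha4, Epha7, Ephb1, Efna5, Sema3a, Sema6a, Pcdh7 and Cadm1. By gene ends within 5 kb, the Eph receptors and ephrins held most of the difference. They had 37 loops in estrus and 48 in diestrus. The other 37 genes together had 142 in estrus and 146 in diestrus, a ratio of 0.973. With any base of a gene counted and summed over genes, the Eph and ephrin genes had 41 in estrus and 54 in diestrus. By that count Slit and Robo genes differed more, with 55 in estrus and 80 in diestrus.

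**Figure D2:**
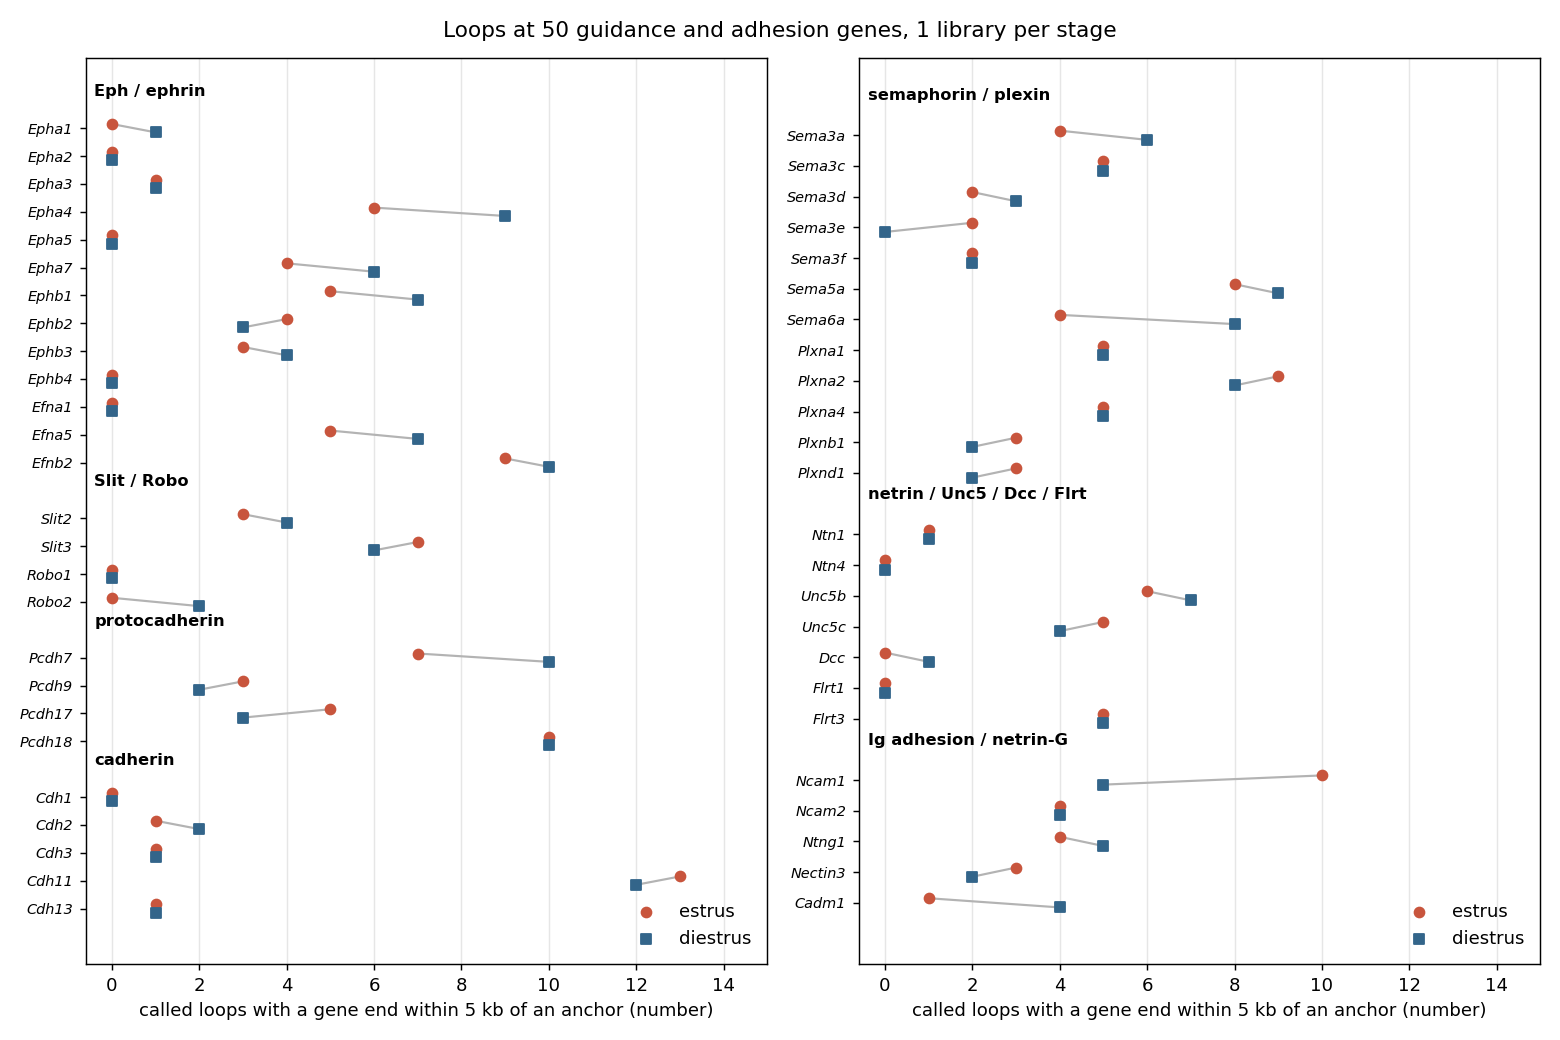
Number of called loops (horizontal axis) with an end of each gene within 5 kb of an anchor, for 50 genes in 7 groups. Circles stand for the estrus library and squares, drawn lower, for the diestrus library. Ncam1 has 10 in estrus and 5 in diestrus, Sema6a has 4 in estrus and 8 in diestrus, and 7 of the 13 Eph and ephrin genes have more in diestrus.

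Eph receptors are the largest family of receptor tyrosine kinases, and ephrins are their membrane-bound ligands. Of the 13 genes in this family, 1 had more loops in estrus, 7 had more in diestrus, 1 had equal numbers and 4 had no loop. Among all protein-coding genes with a loop, 25.6% had more in estrus and 31.5% more in diestrus. The limit given above, on numbers of loops per gene, applies to this comparison too. Of the loops in estrus 86.5% (71.2 to 95.5) were found in diestrus, where all estrus loops gave 80.8%, and of those in diestrus 68.8% (53.7 to 81.3) were found in estrus, where all diestrus loops gave 74.4%. Both intervals include the share of all loops. The 48 diestrus loops thus included 15 with no counterpart, against 5 of the 37 estrus loops. Epha1 had 0 loops in estrus and 1 in diestrus, Epha3 had 1 in each, Ephb2 had 4 in estrus and 3 in diestrus, and Ephb3 had 3 in estrus and 4 in diestrus. The diestrus loop of 390 kb at Ephb3 had its estrus counterpart outside the 5 kb window. With any base counted, Ephb3 had 2 loops in each library, so its place among the 7 genes depends on the window.

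Epha4, a receptor for ephrins of both the A and the B class, had 6 loops in estrus and 9 in diestrus. All 6 estrus loops and all 9 diestrus loops had an anchor at chr1:77510001-77520000, which holds the start of the gene printed above. The longest, of 1860 kb, ran into the gap of 1808 kb between Epha4 and Slc4a3. It held 236 contacts (207 to 268) in estrus and 316 (282 to 353) in diestrus, at strengths of 11.0 in estrus and 11.8 in diestrus. The loop of 1590 kb held 130 contacts (109 to 154) in estrus and 185 (159 to 214) in diestrus. The centred log2 ratio (estrus over diestrus) of its strengths was -0.53 (-0.87 to -0.20). Such ratios were centred on the median over all loop pairs, which takes out any difference in strength that the whole lists share. The 5 diestrus loops of Epha4 without an estrus counterpart spanned 1480, 1140, 850, 260 and 180 kb and had 79, 68, 71, 112 and 114 contacts at strengths from 2.24 to 3.27. The 2 estrus loops without a diestrus counterpart spanned 140 and 100 kb, the first from end to end of the gene. They held 148 and 217 contacts at strengths of 2.36 and 2.25. The added diestrus loops thus ended in the gap, and the added estrus loops within the gene.

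Efnb2, a transmembrane ephrin with a role in vessel formation, had 9 loops in estrus and 10 in diestrus, the most of the family. It spans 44.0 kb and has a gap of 3512 kb on its lower-coordinate side, into which 7 estrus loops and 8 diestrus loops ran. The strongest, of 2090 kb, held 212 contacts (184 to 243) in estrus and 210 (183 to 240) in diestrus, at strengths of 11.1 in estrus and 11.8 in diestrus. This long loop hardly differed in contacts between the libraries. The loop of 590 kb at the same position in both held 126 contacts (105 to 150) in estrus and 59 (44.9 to 76.1) in diestrus, with a centred log2 ratio of 0.77 (0.31 to 1.24). A loop of 2620 kb with 34 contacts (23.5 to 47.5), at 7.44 times the expected number, was called in diestrus alone, the strongest single-library diestrus loop at any of the genes. Its anchor at chr8:8660001-8670000 also lies within 5 kb of an end of Arglu1, which begins 5.05 kb from Efnb2. The same holds for the loops of 2090, 330 and 510 kb on that anchor.

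Ephb1, a receptor for B-class ephrins, had 5 loops in estrus, all found in diestrus, and 7 in diestrus. Its loop with most contacts, of 660 kb, held 213 (185 to 244) in estrus and 261 (230 to 295) in diestrus, at strengths of 8.69 in estrus and 8.24 in diestrus. The loop of 1170 kb had 44 contacts (32.0 to 59.1) in estrus and 34 (23.5 to 47.5) in diestrus, with a centred log2 ratio of 0.70 (0.02 to 1.39). The further diestrus loops, of 430 and 320 kb, held 87 and 69 contacts at strengths of 3.09 and 2.87. Efna5, an ephrin of the A class anchored by a lipid tail, had 5 loops in estrus and 7 in diestrus, nearly all from the anchor at its start and all towards the gap of 3590 kb. Its paired loop with most contacts, of 80 kb in estrus and 100 kb in diestrus, held 184 (158 to 213) in estrus and 183 (157 to 212) in diestrus. Its additional diestrus loops spanned 1570 and 230 kb, with 40 and 147 contacts. Epha7, another A-class receptor, had 4 loops in estrus and 6 in diestrus. A diestrus loop of 3120 kb from its start, with 60 contacts (45.8 to 77.2) and a strength of 5.04, had no counterpart in estrus, while that of 2600 kb had 34 contacts in either library. The paired loop of Epha7 with most contacts, of 320 kb in estrus and 300 kb in diestrus, held 86 (68.8 to 106) in estrus and 112 (92.2 to 135) in diestrus. At Ephb1, Efna5 and Epha7 every estrus loop had a diestrus counterpart, and each gene had 2 further loops in diestrus.

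**Figure D3:**
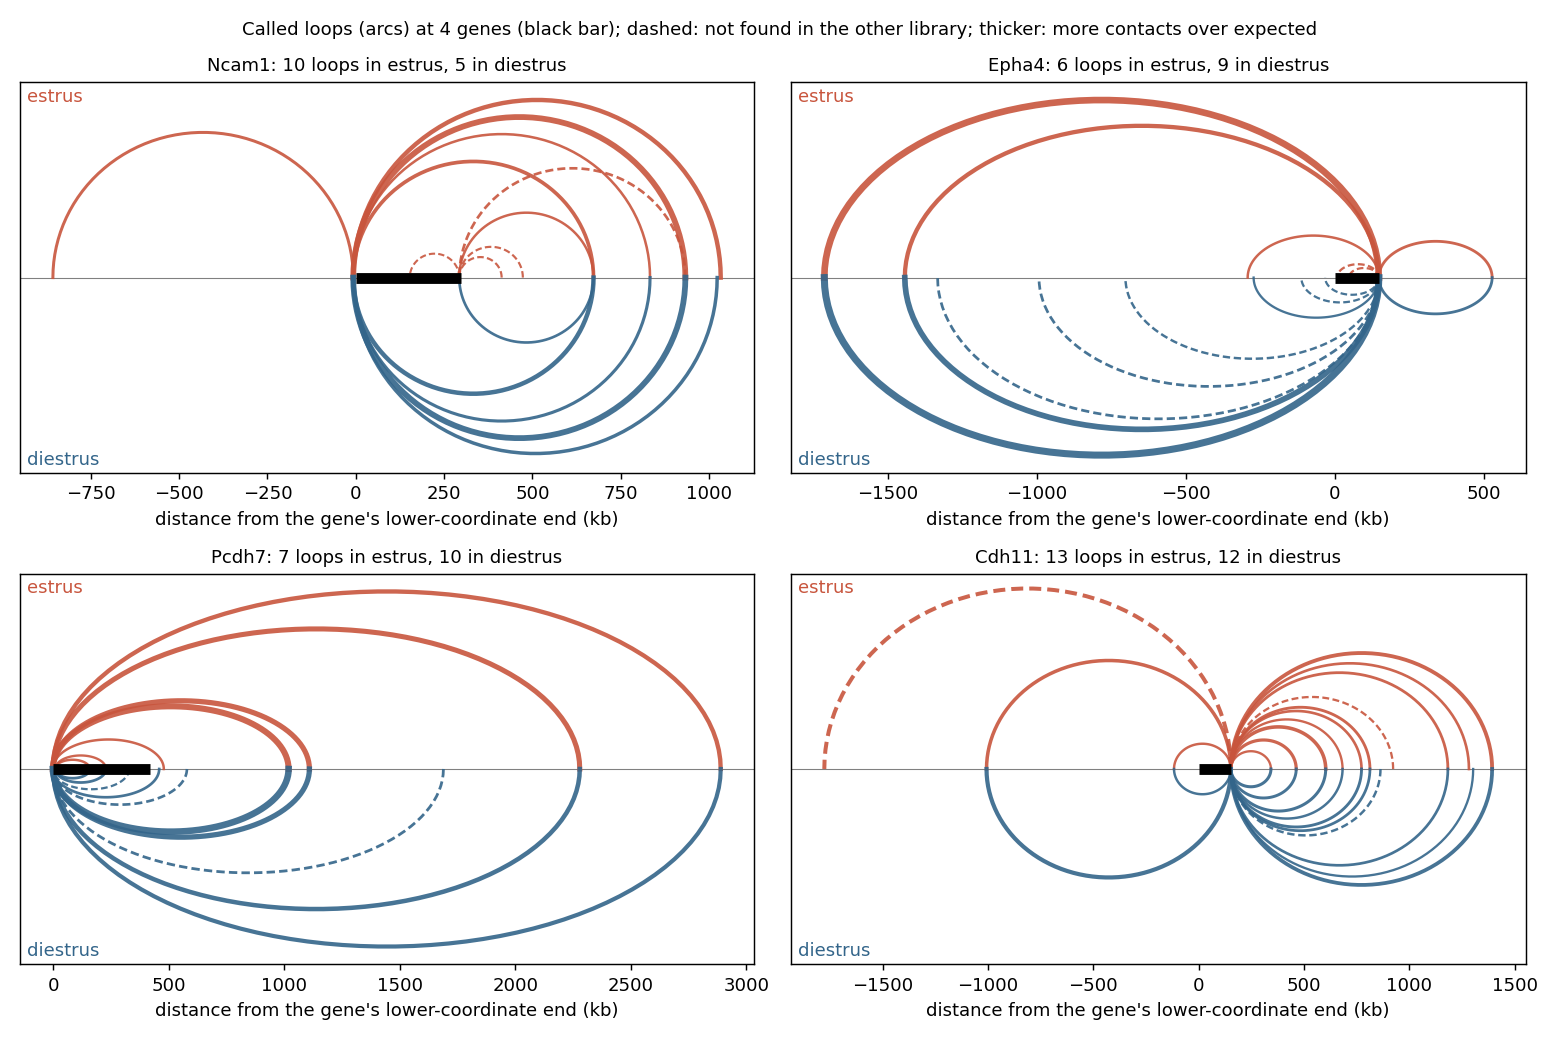
Called loops as arcs at Ncam1, Epha4, Pcdh7 and Cdh11, with distance from the gene's lower-coordinate end in kb on the horizontal axis, the gene as a black bar, estrus arcs above and diestrus arcs below. Thicker arcs are stronger and dashed arcs were not found in the other library: 4 of 10 estrus arcs at Ncam1, and 5 of 9 diestrus arcs at Epha4 and 3 of 10 at Pcdh7.

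Slits are secreted ligands and Robo receptors transduce their signal. By gene ends, Slit3 had 7 loops in estrus and 6 in diestrus, Slit2 had 3 in estrus and 4 in diestrus, and Robo2 had 0 in estrus and 2 in diestrus. The Slit3 loop with most contacts, of 280 kb, held 151 (128 to 177) in estrus and 215 (187 to 246) in diestrus, at strengths of 4.06 in estrus and 4.54 in diestrus. At Slit2 the loop of 1540 kb held 60 contacts (45.8 to 77.2) in estrus and 99 (80.5 to 121) in diestrus, at strengths of 3.63 in estrus and 4.04 in diestrus. Both loops were paired at the same position, and the intervals of their centred log2 ratios, -0.18 (-0.49 to 0.13) at Slit3 and -0.17 (-0.66 to 0.31) at Slit2, included 0.

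Counting gene ends leaves out most loops of the longest genes, so loops were also counted if an anchor overlapped any base of the gene. Over the 50 genes these were 280 in estrus and 340 in diestrus, a ratio of 0.824 that is below the 0.920 of the whole lists. Of the 43 genes with such a loop, 7 had more in estrus (16.3%) and 22 had more in diestrus (51.2%). The background was 25.6% of protein-coding genes with more in estrus and 33.0% with more in diestrus. Both anchors lay inside the gene for 32 loops in estrus and 44 in diestrus. With any base counted, Slit3 had 16 loops in estrus and 21 in diestrus, and Slit2 had 12 in estrus and 14 in diestrus. By the same count Cdh13 had 14 in estrus and 19 in diestrus, and Dcc had 7 in estrus and 8 in diestrus. Without Robo1 and Robo2 the totals were 256 in estrus and 299 in diestrus, a ratio of 0.856.

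The neighbouring genes Robo1 and Robo2 had the largest differences of this kind. Robo1 had 14 loops in estrus and 23 in diestrus, and Robo2 had 13 in estrus and 22 in diestrus. At Robo1 13 loops in each library had a counterpart in the other, and at Robo2 12 in each. The stages thus differed in the loops without one, which were 1 in estrus and 10 in diestrus at either gene. The diestrus loops of Robo1 without a counterpart held from 40 to 164 contacts at strengths from 2.25 to 4.80, and the only such estrus loop held 136 contacts at 1.91. An annotated start inside Robo2, at position 74411825 of chromosome 16, lay in the anchor of 9 loops in estrus and 12 in diestrus, spanning 190 to 1420 kb in each. Its further annotated starts, at positions 75092770 and 75447293, had 0 loops in either library. The annotated start of Robo1, at position 72663149 and also inside the gene, had a single loop of 140 kb, with 197 contacts (170 to 227) in estrus and 187 (161 to 216) in diestrus.

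Robo1 and Robo2 were also joined to each other, across a gap of 844 kb, by 3 loops in estrus and 4 in diestrus. The strongest ran 1420 kb from the last part of Robo1 at chr16:72990001-73000000 to the inner start of Robo2 at chr16:74410001-74420000. It held 179 contacts (154 to 207) in estrus and 183 (157 to 212) in diestrus, 9.76 times the expected number in estrus and 9.59 times in diestrus. The loops of 1690 kb held 56 contacts in estrus and 61 in diestrus. In contacts the strongest of these loops was thus nearly the same in both libraries, while weaker loops around it were listed in diestrus alone.

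**Figure D4:**
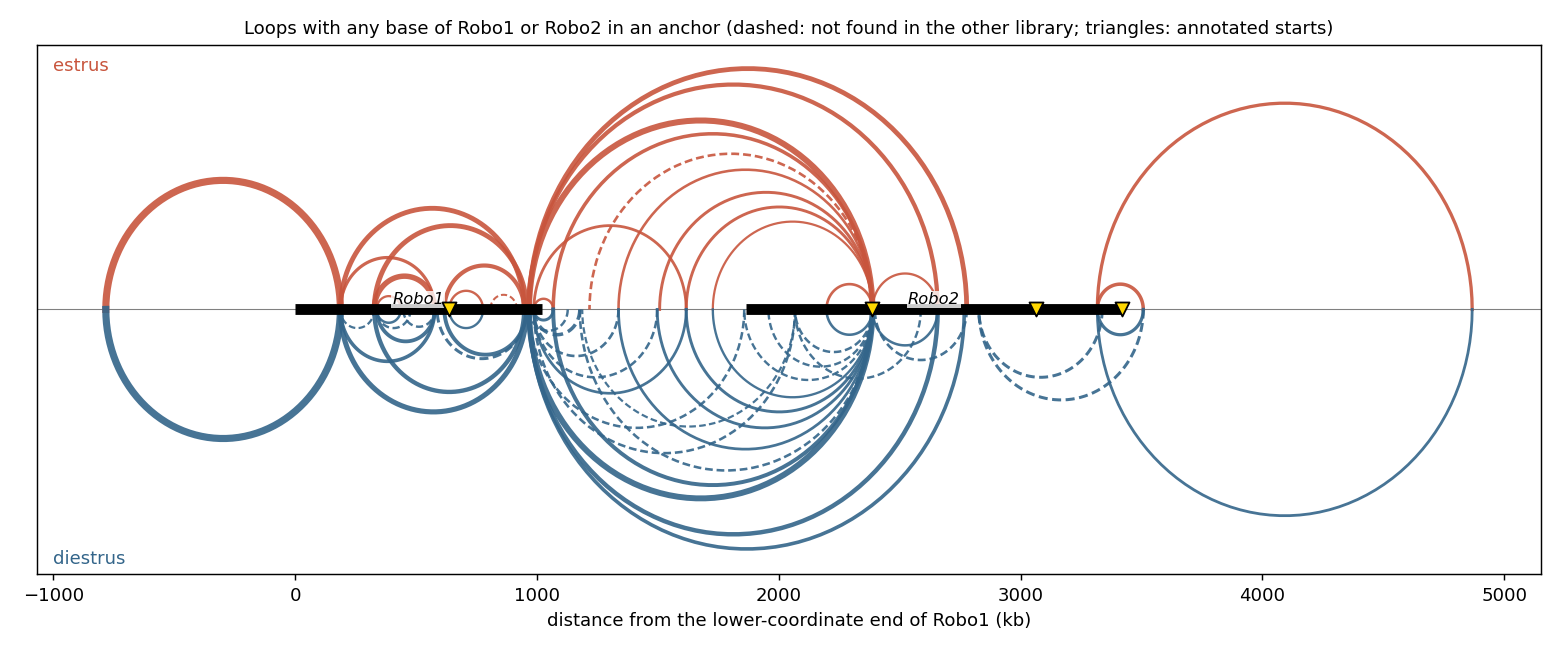
Loops with any base of Robo1 or Robo2 in an anchor, as arcs over distance from the lower-coordinate end of Robo1 in kb, with estrus above (24 loops) and diestrus below (41 loops). Black bars are the genes and triangles their annotated starts. Dashed arcs, not found in the other library, are mostly in diestrus.

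Semaphorins are guidance cues, mostly repellent, and plexins are their receptors. The 7 semaphorin and 5 plexin genes had 52 loops in estrus and 55 in diestrus. Of the 12 genes 4 had more in estrus, 4 had more in diestrus and 4 had equal numbers. Of the estrus loops 88.5% (76.6 to 95.6) were found in diestrus, and of the diestrus loops 83.6% (71.2 to 92.2) in estrus. Sema3c, Plxna1 and Plxna4 had 5 loops in each library and Sema3f had 2, all with a counterpart. Sema3d had 2 loops in estrus and 3 in diestrus, Plxnb1 had 3 in estrus and 2 in diestrus, and Plxnd1 had 3 in estrus and 2 in diestrus.

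Sema6a, a transmembrane semaphorin, had 4 loops in estrus and 8 in diestrus, the largest difference towards diestrus among the genes by ends within 5 kb. With ends inside an anchor it had 0 in estrus and 2 in diestrus, a smaller difference than at Epha4, Efna5 and Pcdh7, and with the diestrus list shortened to the length of the estrus list 4 in estrus and 6 in diestrus. Of the 8 diestrus loops 5 had an estrus counterpart, and for that of 2120 kb the counterpart lay outside the 5 kb window. The other 3 had none, and these spanned 300, 180 and 160 kb with 109, 104 and 95 contacts at strengths of 2.75, 1.94 and 2.24. Its loop with most contacts, of 370 kb, held 227 (198 to 259) in estrus and 210 (183 to 240) in diestrus, with a centred log2 ratio of 0.15 (-0.12 to 0.43). Sema5a, a semaphorin with thrombospondin repeats, had 8 loops in estrus and 9 in diestrus, all at the start printed above. Its loop with most contacts, of 220 kb in estrus and 200 kb in diestrus, held 340 (305 to 378) in estrus and 398 (360 to 439) in diestrus. Plxna2, a receptor for class 3 and class 6 semaphorins, had 9 loops in estrus and 8 in diestrus, including a loop of 2360 kb with 14 contacts in estrus and 19 in diestrus. Its paired loop with most contacts, of 60 kb, held 298 (265 to 334) in estrus and 330 (295 to 368) in diestrus.

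The class 3 semaphorins are secreted, and 3 of their genes, Sema3d, Sema3a and Sema3e, follow each other on chromosome 5. An anchor inside Sema3d, at chr5:12560001-12570000, was looped to 3 places in Sema3a and 1 in Sema3e in both libraries. The loop to the lower-coordinate end of Sema3a, of 560 kb, held 326 contacts (292 to 363) in estrus and 303 (270 to 339) in diestrus, at strengths of 7.27 in estrus and 7.02 in diestrus. A further loop ran to an annotated start within Sema3a, at position 13396784. This start lay inside the anchor in estrus and within 5 kb of it in diestrus. The loop spanned 830 kb in estrus and 840 kb in diestrus. It held 128 contacts (107 to 152) in estrus and 144 (121 to 170) in diestrus. The third, of 1020 kb, held 192 contacts (166 to 221) in estrus and 227 (198 to 259) in diestrus. The loop to Sema3e, of 1650 kb, held 46 (33.7 to 61.4) in estrus and 42 (30.3 to 56.8) in diestrus. All 4 of these loops were called in both libraries.

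By its ends, Sema3a had 4 loops in estrus and 6 in diestrus, and the extra diestrus loops of 270 and 180 kb held 138 and 144 contacts. Within 5 kb of its inner start it had 6 loops in each library, all found in the other. That start lay inside the anchor of 3 loops in estrus and 1 in diestrus, so the equal numbers depend on the window. Sema3e had 2 loops in estrus and 0 in diestrus. The longer of them, of 400 kb, had a strength of 4.35 with 82 contacts (65.2 to 102). It was among the strongest estrus loops at the listed genes called in that library alone. Sema3d had a diestrus loop of 1740 kb with 25 contacts (16.2 to 36.9), at a strength of 4.33 and without a counterpart in estrus.

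Netrins are secreted cues, Dcc and Unc5 proteins are their receptors, and Flrt proteins bind Unc5 and latrophilins. This group had 17 loops in estrus and 18 in diestrus, of which 94.1% (71.3 to 99.9) of the estrus loops and 88.9% (65.3 to 98.6) of the diestrus loops were found in the other library. Unc5b, a netrin receptor of vessels, had 6 loops in estrus and 7 in diestrus, Unc5c had 5 in estrus and 4 in diestrus, and Flrt3 had 5 in each. Ntn1, the best known netrin, had 1 in each, and Dcc had 0 in estrus and 1 in diestrus. The Unc5c loop of 2540 kb was among the strongest at any of the genes, with 104 contacts (85.0 to 126) in estrus and 104 (85.0 to 126) in diestrus, at strengths of 11.6 in estrus and 12.7 in diestrus. Its anchor at the end of Unc5c also lies within 5 kb of an end of Bmpr1b. The Unc5b loop with most contacts, of 50 kb, held 268 (237 to 302) in estrus and 258 (227 to 291) in diestrus. Flrt3 spans 13.3 kb and lies inside Macrod2. All its loops ran to higher coordinates, over 340 to 2150 kb in estrus and 340 to 2140 kb in diestrus, and all but the longest ended inside Macrod2 as well. That of 720 kb had most contacts, 115 (94.9 to 138) in estrus and 100 (81.4 to 122) in diestrus.

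Classical cadherins had 16 loops in each library, and most belonged to Cdh11, a cadherin of mesenchymal cells. Its 13 estrus and 12 diestrus loops all left from the anchor at its higher-coordinate end, chr8:102780001-102790000, and 10 in each library ran on into the gap of 1316 kb before Cdh5. In each library 11 were found in the other. The loop with most contacts, of 450 kb, held 192 (166 to 221) in estrus and 187 (161 to 216) in diestrus, with a centred log2 ratio of 0.35 (0.05 to 0.65). The shortest, of 190 kb, held 110 contacts (90.4 to 133) in estrus and 234 (205 to 266) in diestrus, with a centred log2 ratio of -0.66 (-1.0 to -0.33). Loops from the same anchor thus had ratios of opposite sign. In estrus alone an added loop of 1930 kb ran towards Cdh8, with 34 contacts (23.5 to 47.5) and a strength of 5.77. Cdh2, the neural and mesenchymal N-cadherin, had 1 loop in estrus and 2 in diestrus, and Cdh3 and Cdh13 had 1 in each. The paired loop of Cdh2, of 470 kb in estrus and 460 kb in diestrus, held 110 contacts (90.4 to 133) in estrus and 199 (172 to 229) in diestrus, and that of Cdh3, of 80 kb, held 458 (417 to 502) in estrus and 427 (387 to 469) in diestrus.

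Protocadherins outside the gene clusters lie in some of the widest gene deserts here, and their 4 genes had 25 loops in each library. Pcdh18 spans 14.1 kb, and its start printed above lay in the anchor of 10 loops in estrus and 10 in diestrus, 6 towards Slc7a11 and 4 towards Pabpc4l in both. In each library 9 were found in the other, so the start of Pcdh18 had nearly the same loops in both stages. Its loop with most contacts, of 110 kb, held 239 (210 to 271) in estrus and 306 (273 to 342) in diestrus. Pcdh7 had 7 loops in estrus, all found in diestrus, and 10 in diestrus. They all ran from its start to higher coordinates, up to 2890 kb away. The loops of 1020 and 1110 kb were the strongest, with 203 (176 to 233) and 229 (200 to 261) contacts in estrus and 255 (225 to 288) and 290 (258 to 325) in diestrus. The 3 loops of Pcdh7 that were listed in diestrus alone spanned 330, 580 and 1690 kb, with 113, 94 and 27 contacts at strengths from 2.28 to 3.38.

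Pcdh17 had 5 loops in estrus and 3 in diestrus, all between 1960 and 2970 kb long and with 31 to 43 contacts in estrus and 34 to 41 in diestrus. Those of 1960 and 2120 kb were called in estrus alone, with 31 contacts (21.1 to 44.0) and 37 (26.1 to 51.0) at strengths of 4.06 and 4.01. Its loop of 2870 kb, at the same position in both, held most contacts, 43 (31.1 to 57.9) in estrus and 37 (26.1 to 51.0) in diestrus. Its loop of 2780 kb in estrus, paired with a loop of 2770 kb in diestrus, had the largest centred log2 ratio at these genes, 1.44 (0.75 to 2.13). It held 42 contacts (30.3 to 56.8) in estrus and 34 (23.5 to 47.5) in diestrus. The contacts expected were 4.13 in estrus and 9.15 in diestrus, so most of this ratio lay in the expectation at positions 1 bin apart. Pcdh9 had 3 loops in estrus and 2 in diestrus, and its loop of 3460 kb in estrus alone held 20 contacts (12.2 to 30.9), 7.16 times the expected number.

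Ig-domain adhesion genes had 22 loops in estrus and 20 in diestrus. Ncam1, the neural cell adhesion molecule, had 10 in estrus and 5 in diestrus, the largest difference at any of the genes by gene ends. With any base of the gene counted it had 10 in estrus and 6 in diestrus, a smaller difference than at Robo1 and Robo2. Of the estrus loops 6 were found in diestrus and 4 were not. Those 4 all touched the anchor at the higher-coordinate end of the gene, chr9:49790001-49800000, and spanned 140, 120, 180 and 640 kb. They held 148 (125 to 174), 172 (147 to 200), 145 (122 to 171) and 53 (39.7 to 69.3) contacts at strengths of 1.99, 2.17, 2.15 and 3.18, all below the median of 3.60 for estrus loops at these genes. From the lower-coordinate end, 5 estrus and 4 diestrus loops left an anchor that also lies within 5 kb of an end of Ttc12. The loop with most contacts, of 940 kb, held 216 (188 to 247) in estrus and 206 (179 to 236) in diestrus, at strengths of 9.29 in estrus and 9.31 in diestrus. The loop of 680 kb held 144 (121 to 170) in estrus and 204 (177 to 234) in diestrus, with a centred log2 ratio of -0.40 (-0.71 to -0.08), and that of 1040 kb in estrus, paired with 1030 kb in diestrus, had a ratio of 0.45 (0.02 to 0.88). Of the loops from this end, that of 850 kb in estrus had its diestrus counterpart outside the 5 kb window, so the ends differed by 1 loop here and by 4 at the higher-coordinate end.

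Cadm1, an Ig adhesion molecule of epithelia, had 1 loop in estrus and 4 in diestrus. The loop in both libraries spanned 170 kb within the gene and held 240 contacts (211 to 272) in either. Diestrus loops of 720 and 790 kb held 29 (19.4 to 41.6) and 43 (31.1 to 57.9) contacts at strengths of 4.25 and 3.41, without a counterpart in estrus. With any base of the gene counted, Cadm1 had 8 loops in each library. Ncam2 had 4 loops in each, all found in the other and up to 3350 kb long, and its loop with most contacts, of 80 kb, held 101 (82.3 to 123) in either library. Ntng1, a lipid-anchored netrin-G, had 4 in estrus and 5 in diestrus. Its paired loop with most contacts, of 110 kb in estrus and 100 kb in diestrus, held 149 (126 to 175) in estrus and 143 (121 to 168) in diestrus. Its estrus loop of 2940 kb with 23 contacts (14.6 to 34.5) had a strength of 7.78. This was the highest of the single-library estrus loops assigned to the listed genes by their ends, with at least 20 contacts. Nectin3, a partner of other nectins at cell junctions, had 3 loops in estrus and 2 in diestrus.

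The strength of loops called in both libraries was compared over 156 pairs with at least 20 contacts in each. The median centred log2 ratio, estrus over diestrus, was 0.016 (-0.035 to 0.065), an interval that includes 0. Its SD across the pairs was 0.29, against 0.25 over all 19331 pairs. Over 1.5-fold, 3 pairs (1.92%) were stronger in estrus, against 1.57% of all pairs, and 2 (1.28%) were stronger in diestrus, against 1.49%. The 3 in estrus were those of Pcdh17, Efnb2 and Ephb1 described above. In diestrus they were the loop of Cdh11 and that of Nectin3, of 120 kb, which held 168 contacts (144 to 195) in estrus and 329 (294 to 367) in diestrus, with a ratio of -0.74 (-1.02 to -0.47). Next in size came Plxna4, with 0.54 (0.18 to 0.90) for its loop of 660 kb in estrus and 650 kb in diestrus, and a longer Nectin3 loop with 0.47 (-0.36 to 1.30). On the other side, a further Plxna4 loop had -0.58 (-1.10 to -0.06), Sema3c had -0.54 (-0.83 to -0.25) for its loop of 190 kb, and Epha4 had -0.53 as given above. Both Plxna4 pairs have anchors 1 bin apart and had fewer contacts in estrus. The first held 125 (104 to 149) in estrus and 140 (118 to 165) in diestrus, where 19.6 were expected in estrus and 32.2 in diestrus. The second held 58 (44.0 to 75.0) in estrus and 73 (57.2 to 91.8) in diestrus, where 23.4 were expected in estrus and 19.9 in diestrus. In the first pair the sign thus followed the expectation, against the contacts. In the second pair the contacts and the expectation both went towards diestrus. The longer Nectin3 pair, also 1 bin apart, held 26 contacts in estrus and 27 in diestrus. The shares of pairs past 1.5-fold were close to those of the whole lists.

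**Figure D5:**
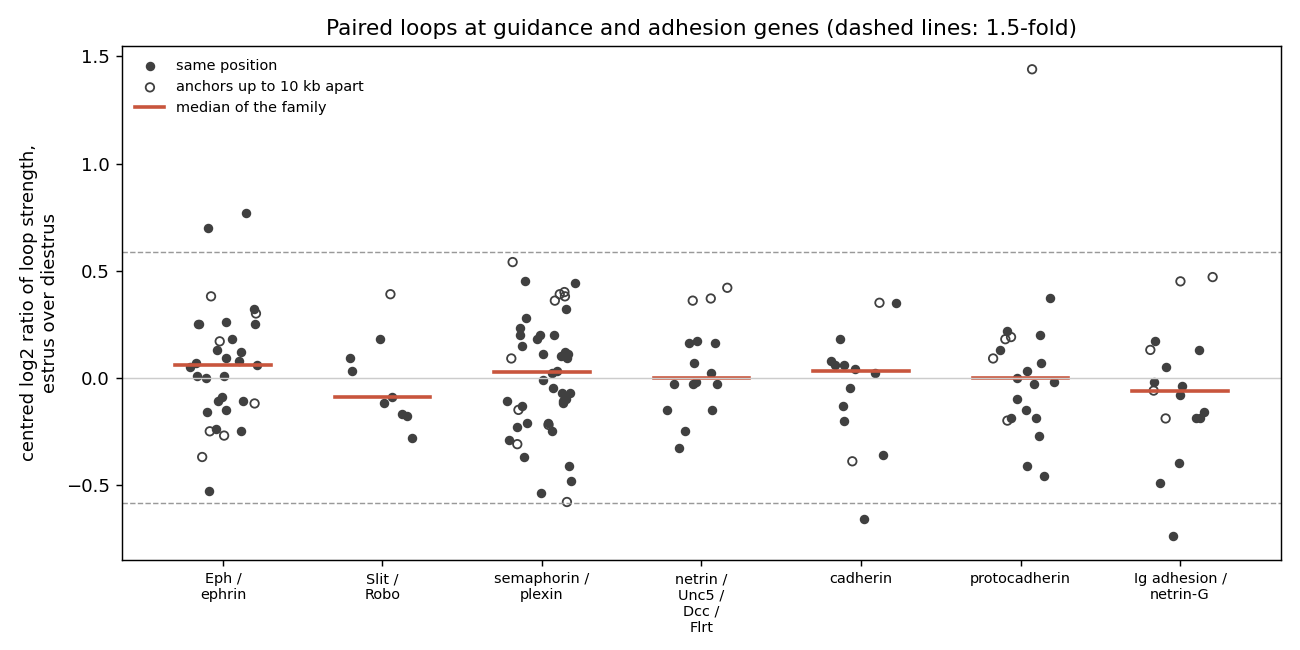
Centred log2 ratio of loop strength, estrus over diestrus (vertical axis), for each of the 156 loop pairs at the listed genes, by gene group. Filled points lie at the same position in both libraries, open points have anchors up to 10 kb apart, red lines are group medians and dashed lines mark 1.5-fold. The 5 pairs past the dashed lines run from -0.74 at Nectin3 to 1.44 at Pcdh17.

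Other genes of the same families were counted from a list of 78. Of these, 55 had a loop. More loops in estrus were seen at 14 and more in diestrus at 19, while 22 had equal numbers, with 146 loops in estrus and 161 in diestrus. These are 25.5% with more in estrus and 34.5% with more in diestrus, close to the 25.6% with more in estrus and 31.5% with more in diestrus among all protein-coding genes with a loop. The difference was 3 loops or more at Flrt2, an Unc5 ligand with 8 in estrus and 13 in diestrus, at Nrp1, a semaphorin co-receptor with 7 in estrus and 10 in diestrus, and at Rgma, a ligand of neogenin with 8 in estrus and 11 in diestrus. The 9 other Eph and ephrin genes had 18 loops in each library, with 1 gene higher in estrus and 1 in diestrus, so the excess in diestrus at the 13 listed ones was not seen in them.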

How the data were processed

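Hi-C libraries were made from mouse uterus using the Arima HiC kit (per the labels), 1 per stage, and each was placed by the stage in its label. Juicer and the build mm10 come from the submitters' processing notes, while aligner, versions and settings were not given in the sources used here. Each deposited list gives 1 called loop per line, as 2 anchors of 10 kb. Contacts observed and pixels merged are raw counts, deposited by the authors per the file headers. The expectation from each of 4 neighbourhoods is a signal from the authors' caller, on the same scale. The q-values are the authors' caller's, at most 0.0991 in estrus and 0.0955 in diestrus. The anchor positions are deposited in bases (other: not measurements), and are given here 1-based.

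Genes came from RefSeq GRCm38.p6, the assembly of mm10. All 50 members matched, and the strand was known for the 36 with a promoter window. A loop was assigned where a gene end lay in an anchor or within 5 kb, and found where a loop of the opposite list had each anchor within 10 kb. Mutually nearest loops were paired (83.7% of pairs at the same position), and the log2 ratio of observed over donut contacts was centred on the median of all pairs. Intervals at 95% are exact Poisson for contacts, Clopper-Pearson for shares, exact conditional for ratios and order statistics for medians. For contacts and ratios they cover counting error only, ratios take the expected contacts as exact, and none covers animals. Python 3.11.15, pandas 2.3.3, numpy 2.4.6, scipy 1.17.1 and matplotlib 3.10.9 were used, and the methods were tested on simulated data.

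The members, families and further genes were chosen with earlier results of these data known. Genes described in full are those with at least 3 loops in a library and a difference of at least 2, and the 3 with most loops in each family, each with its paired loop of most contacts. Loops described are also the 5 pairs with the largest ratio and the 5 strongest single-library loops in each direction, with at least 20 contacts. Further family genes are named at a difference of at least 3. Other loops, and the loops between members and at inner starts, were chosen after their values were seen. Tried as alternatives were the gene window, the matching tolerance, the q-value, list length, the expectation, the centring and the minimum of contacts.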

Additional observations from a re-analysis of the deposited data

How the results depend on the processing

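With 1 library per stage, no setting tests the stages, and all settings use the same lists. Of the alternative values of the main results, 54 stayed close and 12 moved. The median centred log2 ratio of strengths, 0.016, turned to -0.008 with pairs at identical anchors and to -0.025 with at least 50 contacts, so its sign depends on the setting. With anchors that overlap any base of a gene there were 280 loops in estrus and 340 in diestrus, 7 genes with more in estrus, 70.3% of diestrus loops found in estrus, and 7 pairs over 1.5-fold stronger in estrus. With identical anchors, 69.3% of estrus loops and 63.9% of diestrus loops were found in the other library, against 67.3% of all estrus loops and 61.9% of all diestrus loops. The largest of the 4 expectations gave 4 pairs stronger in diestrus, and at least 50 contacts left 1 pair stronger in estrus and 2 in diestrus. A window of 50 kb left 76.1% of estrus and 77.4% of diestrus far anchors free of other genes. Counting loops at transcription starts alone, an alternative chosen after seeing the data, gave 5 genes with more in estrus and 13 with more in diestrus. Only the 36 genes with a promoter window could be counted there, so part of the fall in the first number can come from genes left out. The cause of these moves was not tested, beyond the setting's own change in what is counted. Of the 10 genes with a difference of 2 or more loops, 8 kept its direction and 7 kept at least 2 loops in every setting run. Transcription starts alone were not run for 3 of the 10, Sema6a, Ncam1 and Cadm1, which have no promoter window. The exceptions were Pcdh17, with 4 loops in estrus and 3 in diestrus by ends inside an anchor or by any base, Cadm1, with 8 loops in estrus and 8 in diestrus by any base, and Sema3a, with 6 in estrus and 6 in diestrus at its annotated transcription start. No paired analysis was possible because each stage has 1 library. Loops near the caller's thresholds can be listed in a single library through counting error, and the depth of the libraries is unknown.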
